A study of Homo sapiens with 4 samples.

Results

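A set of 10 genes listed as Wnt antagonists was followed in human colon cancer cells. Treatment was with the DNA-demethylating agent decitabine (DAC) or with OR-2003 or OR-2100, both prodrugs of DAC. The genes were SFRP1, SFRP2, SFRP4, SFRP5, DKK1, DKK2, DKK3, DKK4, WIF1 and SOX17. They were chosen by name, with earlier results of these data known. Every probe whose RefSeq accession led to one of these symbols was taken. This gave 12 probes of the 58201 gene probes on the array and 10 genes of the 25006 that could be named. SFRP4 and DKK3 had 2 probes each and the other genes 1. SOX17 is a nuclear transcription factor with an HMG box, so the word "secreted" in the description "secreted Wnt antagonists" does not hold for it. Whether each of the other members acts as a Wnt antagonist in these cells was not tested.

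The cells were HML58-3, a derivative of the colon cancer cell line HCT116 in which an added, methylated UCHL1 promoter drives a luciferase reporter. All 4 cultures were grown in McCoy's 5A medium with fetal bovine serum. Seeding was on day 0, and a day later, on day 1, the cultures were given 1 µM DAC, 1 µM OR-2003 or 1 µM OR-2100, each dissolved in DMSO, and RNA of all cultures was taken on day 5. The remaining culture was labelled mock, and the labels do not say whether it received DMSO. RNA of each culture was labelled with 1 dye and hybridised to 1 array, so that each condition had 1 sample, no difference between conditions could be tested, and no error between cultures can be given. All 3 drug arrays were compared with the same mock array.

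Wnt ligands bind a Frizzled receptor together with the co-receptors LRP5 and LRP6, which stabilises β-catenin and lets it switch on target genes with the TCF/LEF factors. The SFRP proteins, whose cysteine-rich domain resembles that of Frizzled, and WIF1 bind the Wnt ligands themselves, whereas DKK1, DKK2 and DKK4 bind LRP5 and LRP6. In colon epithelium this pathway maintains the stem cells of the crypt, and several of its antagonists, the SFRP genes among them, are known to be silenced by promoter methylation in colorectal tumours.

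DAC, once built into DNA, traps the maintenance methyltransferase, so that methylation, which lies mostly on CG dinucleotides, is lost as cells divide. The promoters of the members differ in how many CG dinucleotides they hold. The RefSeq promoter sequences (GRCh38.p14) used here cover 5 members. In the 250 bases before the start of transcription, WIF1 had 27 CG dinucleotides, SFRP5 had 21, DKK1 had 18, SFRP4 had 17 and SFRP2 had 11. Over all 27305 promoters the median was 11, and 17.3% held as many as WIF1, 29.8% as many as SFRP5, 36.5% as many as DKK1, 38.8% as many as SFRP4 and 50.02% as many as SFRP2. Below are shown DKK1, which rose from a level already measured on the mock array, WIF1, which was measured with the drugs and not on the mock array, and SFRP5, which was not measured on any array. Each sequence runs 5′ to 3′ along the strand of the gene and ends at the base before its start, with each CG in capitals.
DKK1, chr10:52314031-52314280, plus strand: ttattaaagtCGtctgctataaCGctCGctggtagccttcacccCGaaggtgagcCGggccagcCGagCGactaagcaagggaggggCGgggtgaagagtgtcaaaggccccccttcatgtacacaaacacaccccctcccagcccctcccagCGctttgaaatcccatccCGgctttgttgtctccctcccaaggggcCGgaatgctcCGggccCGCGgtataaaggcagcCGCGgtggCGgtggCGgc
WIF1, chr12:65121306-65121555, minus strand: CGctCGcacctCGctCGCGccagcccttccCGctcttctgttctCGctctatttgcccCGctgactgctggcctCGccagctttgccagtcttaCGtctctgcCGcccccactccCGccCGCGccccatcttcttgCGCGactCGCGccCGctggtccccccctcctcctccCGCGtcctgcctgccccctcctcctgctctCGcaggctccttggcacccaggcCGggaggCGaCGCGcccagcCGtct
SFRP5, chr10:97772000-97772249, minus strand: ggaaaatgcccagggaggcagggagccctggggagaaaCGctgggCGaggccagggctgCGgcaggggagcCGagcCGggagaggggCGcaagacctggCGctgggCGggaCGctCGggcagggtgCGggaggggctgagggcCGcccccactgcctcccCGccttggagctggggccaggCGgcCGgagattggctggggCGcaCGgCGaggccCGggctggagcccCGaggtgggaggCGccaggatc
The letters CTTTGA, the core of the motif that TCF/LEF factors bind, were searched on both strands and occurred 2 times in the DKK1 sequence and in none of the other 4, while 11.4% of all promoters held them. DNA methylation was not measured in these samples. SFRP1, DKK2, DKK3, DKK4 and SOX17 are named without a sequence.

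Levels below are on a log2 scale on which 0 is the 75th percentile of an array's gene probes. A probe was called well above background where the scanner software marked more than 0.5 of its unmarked spots so. The lowest level among such probes, the background limit, was -4.29 on the mock array, -4.42 with DAC, -4.38 with OR-2003 and -4.55 with OR-2100. A rise given as "at least" was taken against the mock limit, or the mock reading if that was higher. Some probes read above the limit and were still not well above background, so such a bound depends on this choice of limit. Following the study's methods, a gene was called induced where a probe exceeded mock 2-fold or more and had a level of -1 or more with the drug. By the mirror image of this rule, chosen here, a gene was called reduced where a probe was 2-fold or more below mock and had a level of -1 or more on the mock array. Between 31601 and 33282 gene probes were well above background on each array and no gene probe was saturated. UCHL1, a second gene known to be silenced by methylation in HCT116 cells, had no measured level in mock cells and was at least 1907-fold higher with DAC, 2126-fold with OR-2003 and 2007-fold with OR-2100, while DNMT1, the maintenance methyltransferase, differed from mock by -0.30, -0.18 and -0.38 on the log2 scale. Of 8 colon epithelial markers the mock array measured 6 well above background and each drug array 7, and CDH17 was below on all. The 12 housekeeping genes were measured on every array with a median log2 difference of -0.18, -0.16 and -0.30 from mock, GAPDH differed by -0.56, -0.60 and -0.69, and PPIA was reduced in 1 of its 5 probes by each drug. RPLP0 differed by -0.81, -0.76 and -0.97 in 1 probe and by -0.92, -0.89 and -1.03 in the other, which counted as reduced with OR-2100.

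Of the 10 genes, 3 were induced by each drug, namely SFRP1, DKK1 and SOX17, and none was reduced. Over all named genes 6.33% were induced with DAC, 6.45% with OR-2003 and 6.38% with OR-2100, and 6.93%, 7.05% and 7.79% were reduced. In probes, 3 of 12 members were induced with each drug, against 3.44%, 3.53% and 3.5% of all gene probes, and 0 of 12 were reduced, against 4.03%, 4.07% and 4.49%. Without the requirement on the level, 7 of the 12 probes had readings at least 2-fold above the mock reading with each drug, against 10.9% of all gene probes with DAC, 11.8% with OR-2003 and 10.5% with OR-2100. The further 4 were SFRP2, DKK4, WIF1 and 1 of the DKK3 probes, all of which stayed under the level of -1 with every drug, and the SFRP2 readings do not show a 2-fold rise, because those of mock, DAC and OR-2003 were not well above background. With 1 probe taken per gene, the median log2 difference of the 10 genes from mock was 2.19 with DAC, 2.23 with OR-2003 and 2.24 with OR-2100, against -0.12, -0.09 and -0.23 over all named genes. This median rests in part on mock readings not well above background, and it was 0.35, 0.41 and 0.39 with the normexp background correction described below. Because the 10 genes were chosen with earlier results of these data known, the comparisons with all genes and probes describe the set and are not a test.

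Well above background were 3 of the 12 probes in mock cells, 7 after DAC, 7 after OR-2003 and 8 after OR-2100. A group of 4 probes, for DKK3, DKK4, WIF1 and SOX17, were well above background with every drug and not on the mock array, a state found for 4.77% of all gene probes. Another 4 probes were well above background on no array, so that SFRP4, SFRP5 and DKK2 had no measured level in any culture. As these are bulk RNA samples, a rise in the number of cells that transcribe a gene and a rise in RNA per cell cannot be told apart.

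**Figure D1:**
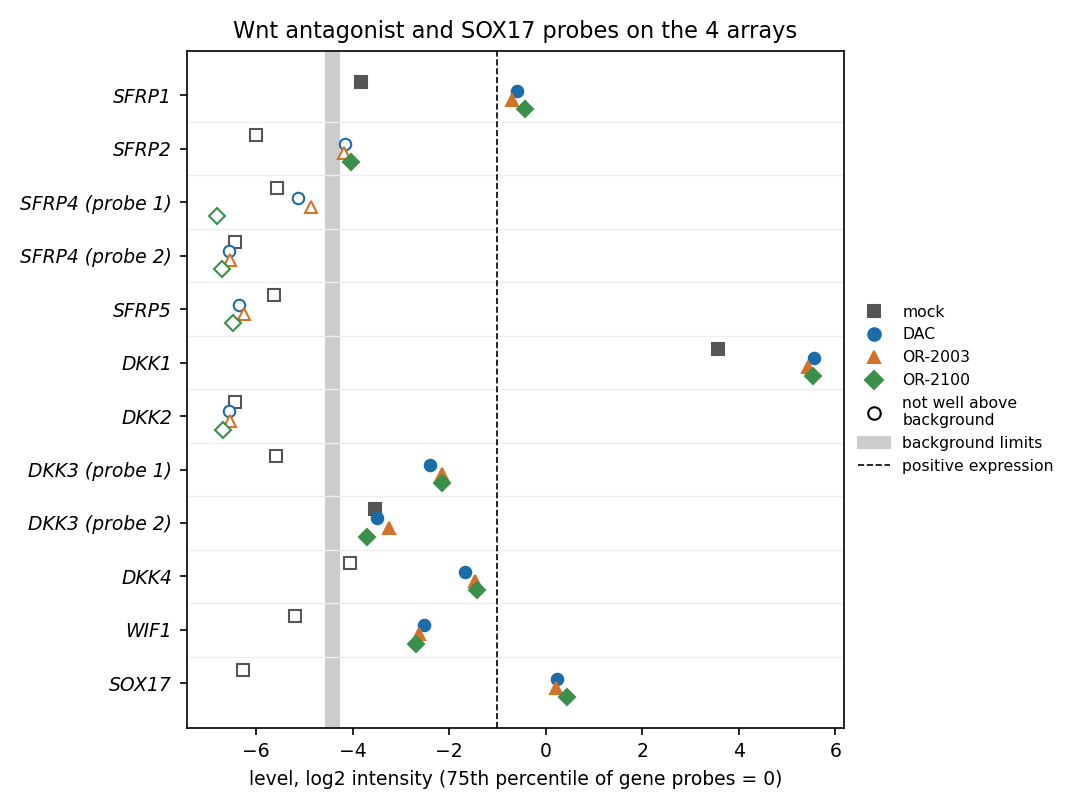
Level of each of the 12 probes on the 4 arrays (log2 intensity, gene probes' 75th percentile at 0). Filled symbols are well above background, open symbols are not, the grey band spans the background limits of the arrays (-4.55 to -4.29) and the dashed line is the level of -1 asked of an induced gene. SFRP1, DKK1 and SOX17 lie right of the line with every drug, and SFRP4, SFRP5 and DKK2 have open symbols only.

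SFRP1, a secreted protein that binds Wnt ligands, was near the limit of measurement on the mock array and 8.65-fold to 10.5-fold higher with the drugs. Its level was -3.82 on the mock array, -0.59 with DAC, -0.71 with OR-2003 and -0.43 with OR-2100. All 3 drug arrays lay far above mock and close to each other. The log2 difference from mock was 3.22 with DAC, 3.11 with OR-2003 and 3.39 with OR-2100, or 9.35-fold, 8.65-fold and 10.5-fold. Of the 27921 probes measured on every array, 0.953% showed as large a rise with DAC, 1.04% with OR-2003 and 0.860% with OR-2100. Among all gene probes, readings not well above background included, the shares were 2.70%, 2.93% and 2.58%.

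The SFRP1 probe was printed as 10 spots on each array, which gives the error within an array. On the mock array 1 spot was marked by the software and left out, and the other 9 had a processed intensity of 11.1 ± 2.66 (SD, 9 spots), of which 7 were well above background. The intensity was 116.9 ± 6.31 with DAC, 102.3 ± 9.62 with OR-2003 and 130.6 ± 11.7 with OR-2100 (SD, 10 spots each). The highest mock spot, at 14.9, lay below the lowest spot of any drug array, at 87.5. The standard error between spots was 0.12, 0.13 and 0.12 on the log2 differences from mock, and it covers the array surface, not the spread between cultures. The mock value was small against its background, since the median raw intensity of the spots was 40 with a local background of 27, against 146.5 and 29 with DAC, 132 and 29.25 with OR-2003 and 156.75 and 26 with OR-2100. With another background correction, normexp on the median spot signal with an offset of 50 added to every spot, the SFRP1 differences became 1.20, 1.12 and 1.30 on the log2 scale, still upward but much smaller.

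**Figure D2:**
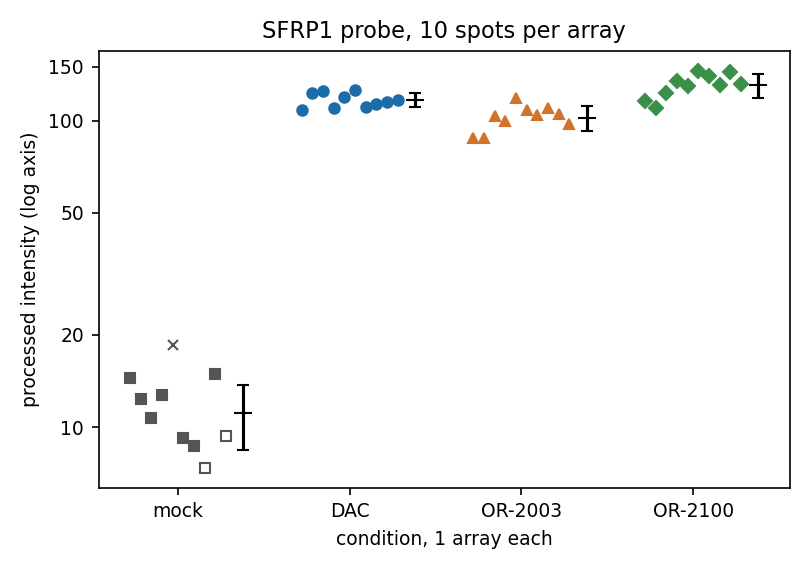
Processed intensity (log axis) of the 10 spots of the SFRP1 probe on each array, with the mean and SD of the unmarked spots as bars. Open squares are mock spots not well above background and the cross is the spot that the software marked. The mock spots centre on 11.1 and the drug arrays on 102.3 to 130.6, with no overlap.

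SFRP2, SFRP4 and SFRP5, also Wnt-binding proteins of the SFRP family, were at most close to the background limit. The SFRP2 level was -6.00 on the mock array, -4.16 with DAC, -4.19 with OR-2003 and -4.04 with OR-2100. SFRP2 was well above background only with OR-2100, where it was at least 1.18-fold above mock, a bound too low to count as 2-fold. The SFRP5 level was -5.64 on the mock array, -6.35 with DAC, -6.25 with OR-2003 and -6.48 with OR-2100, none of them well above background, so these values have no order. One SFRP4 probe read -5.57, -5.13, -4.86 and -6.82 in the same order of arrays and the other -6.44, -6.57, -6.55 and -6.70, likewise without a measured level.

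WIF1, which binds Wnt ligands through its own WIF domain, was measured with the drugs only. Its level was -5.20 on the mock array, -2.52 with DAC, -2.62 with OR-2003 and -2.69 with OR-2100. The rise was at least 3.40-fold with DAC, 3.17-fold with OR-2003 and 3.03-fold with OR-2100, a lower bound taken against the background limit of the mock array. WIF1 remained below the level of -1 on every array and so was not called induced.

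DKK1, an inhibitor that binds LRP5 and LRP6, was the member with a measured signal far above background on every array. Its level was 3.57 on the mock array, 5.57 with DAC, 5.45 with OR-2003 and 5.54 with OR-2100. In processed intensity, with the error that the scanner software assigns, this was 1814 ± 181, 8379 ± 838, 7246 ± 725 and 8152 ± 815. All 3 drug arrays were high and mock was low, with log2 differences of 2.0, 1.87 and 1.96, or 3.99-fold with DAC, 3.66-fold with OR-2003 and 3.90-fold with OR-2100. The call rests on the 2-fold threshold, since none of these reached 4-fold. As large a rise was shown by 2.39% of the probes measured on every array with DAC, 2.87% with OR-2003 and 2.61% with OR-2100. Over all gene probes, readings not well above background included, the shares were 5.26%, 5.93% and 5.53%. The normexp correction left DKK1 nearly where it was, at 2.01 with DAC and 1.86 with OR-2003.

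DKK4, which binds the same co-receptors, was measured with each drug. Its level was -4.06 on the mock array, where it was not well above background, and -1.68 with DAC, -1.47 with OR-2003 and -1.42 with OR-2100. The drug readings were 5.24-fold, 6.03-fold and 6.26-fold above the mock reading. Because that reading exceeded the background limit of its array, the ratios were taken against the reading itself and are not lower bounds. The reading was not well above background, so the size of the rise is uncertain. DKK4 stopped short of the level of -1 with every drug.

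DKK2 gave no measured level, at -6.44 on the mock array, -6.56 with DAC, -6.54 with OR-2003 and -6.69 with OR-2100. The 2 probes of DKK3, which stand for different transcripts in the array's annotation, did not move alike. The first read -5.60 on the mock array, -2.40 with DAC, -2.15 with OR-2003 and -2.14 with OR-2100, a rise of at least 3.70-fold, 4.40-fold and 4.42-fold. The second was measured on every array and read -3.55, -3.49, -3.24 and -3.70, which are log2 differences of 0.05, 0.30 and -0.16 from mock. A single direction for DKK3 can therefore not be given.

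SOX17, the nuclear member, is a factor of the SOXF group that acts in endoderm and can hold back β-catenin and TCF/LEF factors. Its level was -6.26 on the mock array, not well above background, and 0.23 with DAC, 0.21 with OR-2003 and 0.45 with OR-2100. SOX17 went from no measured level to above the 75th percentile of the array with each drug. The rise was at least 22.8-fold with DAC, 22.5-fold with OR-2003 and 26.6-fold with OR-2100. The measured log2 differences of 6.49, 6.47 and 6.71 rest on a mock reading below the background limit, so that SOX17 has no call where a probe must be well above background on every array.

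**Figure D3:**
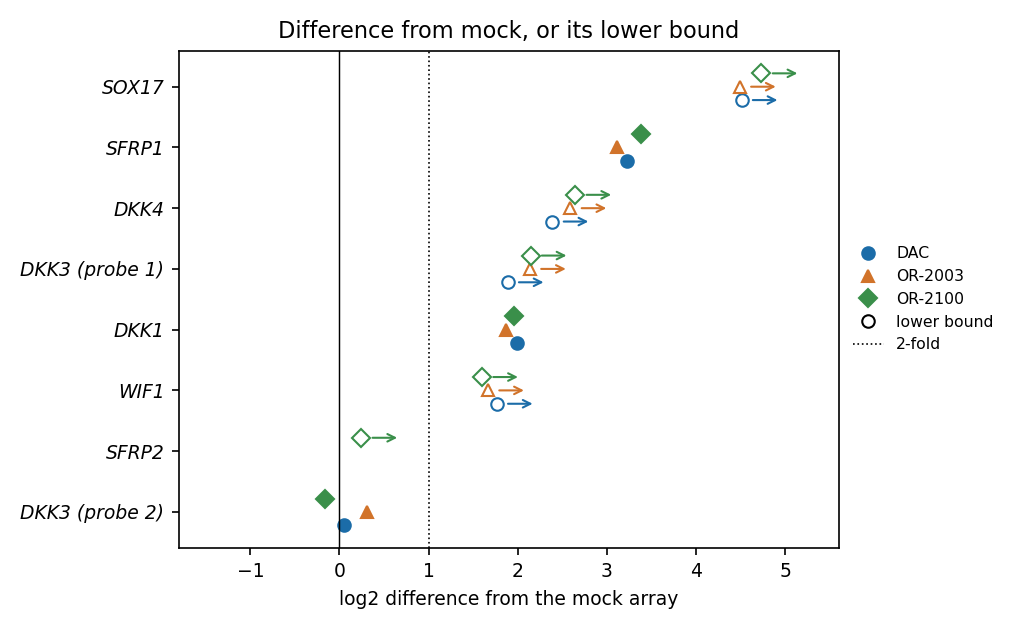
Log2 difference from the mock array for the 8 probes well above background with at least 1 drug. Filled symbols are measured on both arrays, open symbols with arrows are lower bounds because the mock reading was not well above background, and the dotted line is 2-fold. The DKK4 symbols, though drawn with arrows, are not lower bounds. They are ratios to a mock reading that exceeded the background limit but was not well above background. SOX17, SFRP1, DKK4, DKK1, WIF1 and the first DKK3 probe lie right of the line with every drug, and the second DKK3 probe and the bound of SFRP2 with OR-2100 lie left of it.

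The members that were dim on the mock array depended most on the background correction. With normexp, the log2 differences from mock were 1.83, 1.80 and 1.96 for SOX17, 0.57, 0.73 and 0.66 for DKK4, 0.39, 0.52 and 0.49 for the first DKK3 probe, and 0.31, 0.30 and 0.28 for WIF1. The direction was the same for these 4 in each case, but the last 3 no longer reached 2-fold. SFRP2 went to -0.04 with DAC, -0.02 with OR-2003 and 0.0011 with OR-2100.

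The 3 drugs were compared in pairs at the same dose and day, over the 7 member probes well above background with all of them. OR-2003 differed from DAC by -0.12 to 0.25 on the log2 scale with a median of -0.02, and OR-2100 from DAC by -0.21 to 0.26 with a median of 0.16. OR-2100 differed from OR-2003 by -0.46 to 0.27 with a median of 0.05. None of the 7 probes was 2-fold apart in any of the 3 pairs, against 0.088%, 0.264% and 0.541% of all 30696 probes measured above background with each drug. With 1 array per drug an interval for these differences cannot be given, and small differences between cultures were not detectable in this design.

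For SFRP1 the level with OR-2100 was above that with OR-2003 by 0.27, with a standard error between spots of 0.060, and above that with DAC by 0.16 with an error of 0.049. The difference of OR-2003 from DAC was -0.11 with an error of 0.0501. The same pair differences had an SD of 0.24, 0.23 and 0.19 among the 1000 probes nearest in mean level over all arrays, mock included. For SFRP1, SOX17, DKK1, DKK4, WIF1 and the first DKK3 probe this mean lay below the level with the drugs, and the number of spots was not matched. These SDs are therefore not those of probes at the drug level, and whether the SFRP1 differences exceed the spread there was not tested. The DKK1 difference of OR-2003 from DAC was -0.12, where the probes chosen in this way had an SD of 0.084. SOX17 with OR-2100 was above OR-2003 by 0.24, where the SD was 0.24. No member probe was more than 2 such SDs from 0 in any pair, but for the reason given this is not a test of whether the drugs differ.

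Antagonists of Wnt outside the 10 genes were a mixed set with 0 of 12 genes induced or reduced by any drug, and a median log2 difference of 0.45 with DAC, 0.40 with OR-2003 and 0.33 with OR-2100. FRZB, a Wnt-binding relative of the SFRP proteins, read -1.0 on the mock array, -0.73 with DAC, -0.69 with OR-2003 and -0.68 with OR-2100. SOST and SOSTDC1, secreted proteins that bind LRP5 and LRP6, had a measured level with each drug but not in mock cells, with a rise of at least 1.74-fold, 1.58-fold and 1.40-fold for SOST and 1.62-fold, 1.76-fold and 1.70-fold for SOSTDC1. KREMEN2, a receptor for DKK proteins, read 3.18 on the mock array, 4.05 with DAC, 3.94 with OR-2003 and 4.04 with OR-2100. Its relative KREMEN1 had 2 probes slightly below mock and 1 above it, with log2 differences of 1.43, 1.73 and 1.18 at a level under -1.

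NOTUM, an enzyme that removes the lipid from Wnt ligands, differed from mock by 0.49, 0.35 and 0.33 on the log2 scale in the probe measured on all arrays. TRABD2A and TRABD2B, proteases that cut Wnt ligands, differed by 0.87, 0.61 and 0.72 and by 0.40, 0.45 and 0.05 in their brightest probes. DKKL1, related to DKK3, differed by -0.59, -0.56 and -0.18. IGFBP4 was measured with the drugs only, at least 1.62-fold, 1.44-fold and 1.35-fold above mock, and APCDD1 and CER1 were well above background on no array.

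Other steps of the pathway held genes that moved in both directions. Over all named genes 5.77% were induced by all 3 drugs and 5.99% reduced by all 3. Among 19 Wnt ligands 1 was induced by all 3 drugs and 1 reduced. WNT11 read -1.63 on the mock array, 2.03 with DAC, 1.98 with OR-2003 and 2.30 with OR-2100, and WNT16 read 3.14, -0.16, -0.16 and -0.40. WNT11 was thus low and WNT16 high on the mock array alone. Among 15 receptors FZD9 was induced by all 3 drugs, with log2 differences of 1.59, 1.79 and 1.62. FZD2 was reduced, with differences of -1.71, -1.83 and -1.76, and so was FZD6, with -1.05, -1.22 and -1.20. Of the 9 genes of the R-spondin module, whose secreted members strengthen Wnt signals, RSPO4 was induced, with differences of 2.08, 2.01 and 2.20, and none was reduced.

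Inside the cell, 5 of 15 intracellular inhibitors were induced by all 3 drugs and 1 was reduced. AXIN2, a scaffold of the complex that destroys β-catenin and itself a Wnt target, differed from mock by 1.17, 1.32 and 1.32 on the log2 scale in its brighter probe. The other AXIN2 probe differed by 1.09, 1.39 and 0.92, and was not called induced with OR-2100. NKD1, an inhibitor that binds Dishevelled and is also a Wnt target, differed by 2.22, 2.20 and 2.19. DACT1 and DACT3, which also bind Dishevelled, differed by 2.12, 2.0 and 1.98 and by 1.19, 1.23 and 1.09, and APC2, a relative of APC, by 1.15, 1.03 and 1.12. CTNNBIP1, which blocks the contact of β-catenin with TCF, was reduced in 1 of its 2 probes, by differences of -1.14, -1.20 and -1.26.

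Among 14 signal transducers 1 was induced by all 3 drugs and 1 reduced, and both are DNA-binding partners of β-catenin. LEF1 read -6.58 on the mock array, not well above background, and 0.41 with DAC, 0.45 with OR-2003 and 0.66 with OR-2100, a rise of at least 25.9-fold, 26.7-fold and 30.9-fold. TCF7L2 was lower in all 3 of its probes, and the brightest differed from mock by -1.71, -1.78 and -1.72. Of 19 Wnt target genes 4 were induced by all 3 drugs and 1 reduced, with a median log2 difference of 0.16 with DAC, 0.04 with OR-2003 and -0.01 with OR-2100 over the list. The induced were AXIN2, NKD1 and LEF1, given above, and ASCL2, a stem cell factor that was at least 15.5-fold, 16.4-fold and 17.4-fold above mock. CD44 was reduced in 1 of its 2 probes, by -1.96, -1.86 and -1.85.

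**Figure D4:**
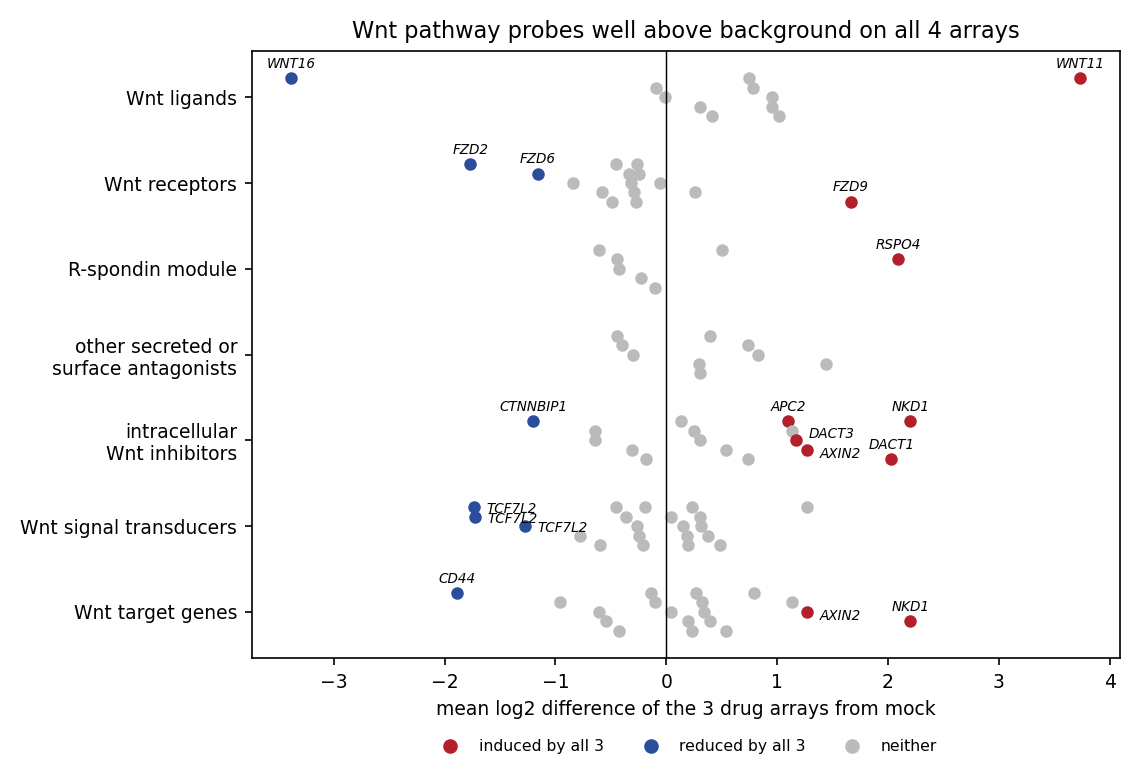
Mean log2 difference of the 3 drug arrays from the mock array for each probe of 7 Wnt gene lists that was well above background on all 4 arrays, 1 point per probe. Red points were induced and blue points reduced by all 3 drugs, and a gene that stands in 2 lists, such as AXIN2 or NKD1, is drawn in both. WNT11 and WNT16 are at opposite ends, the list of other antagonists has no coloured point, and LEF1 and ASCL2 are absent because their mock readings were not well above background.

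Genes that work with SOX17 in endoderm were read beside it. Of the 9 genes of the SOXF and endoderm list 2 were induced by all 3 drugs and none was reduced. FOXA2, an endoderm factor, had no measured level on the mock array and was at least 10.4-fold higher with DAC, 12.11-fold with OR-2003 and 14.25-fold with OR-2100. CXCR4, a chemokine receptor found on definitive endoderm, read -1.85 on the mock array, 0.07 with DAC, 0.29 with OR-2003 and 0.14 with OR-2100.

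Markers of other cell types moved in the same comparisons. Of 9 fibroblast markers the mock array measured 2 well above background and each drug array 7, with a summed level, relative to the 75th percentile, of 2.29 on the mock array and 10.2 to 10.6 on the drug arrays. THY1 was the fibroblast marker induced by all 3 drugs, at least 115.8-fold with DAC, 122.6-fold with OR-2003 and 119.4-fold with OR-2100, while COL3A1 and LUM were well above background on no array. Of the 4 leukocyte markers reported here CD14 was induced by all 3 drugs, with log2 differences of 1.70, 1.70 and 1.71. The brightest PTPRC probe differed by -0.31, -0.27 and -0.16, and ITGAM by -0.18, -0.20 and -0.15. Other PTPRC probes moved in both directions or gave no measured level, and CD3E was well above background with OR-2100 only. The summed level of the 4 was 0.752 on the mock array and 1.12 to 1.19 on the drug arrays. The summed level of the epithelial markers was 1306 on the mock array and 1587 to 1685 on the drug arrays, with CDH1 and EPCAM reduced by all 3 drugs. KRT18 and KRT19, the brightest, weigh most in this sum. The median log2 level of the list was 5.14 on the mock array, 4.13 with DAC, 4.02 with OR-2003 and 4.08 with OR-2100. Its median log2 difference from mock was 0.48, 0.23 and 0.26, so the list has no single direction. The part of these markers in the levels of SFRP1, DKK1 and SOX17 was not tested.

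The genes whose levels over the 4 arrays were nearest to those of SFRP1, by Euclidean distance on the log2 scale, were DMBT1 at 0.175, ZNF10 at 0.226, CPN1 at 0.356, TM4SF19 at 0.358 and LINC01694 at 0.369. DMBT1 read -3.92 on the mock array, -0.58 with DAC, -0.60 with OR-2003 and -0.53 with OR-2100. The genes were picked by these same levels, so the likeness is a description over 4 arrays.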

How the data were processed

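RNA of 4 HML58-3 cultures was hybridised to 1-colour Agilent human arrays with Cy3. The authors extracted spots with Agilent Feature Extraction (12.1.0.3 per the file headers), and the deposited processed intensity, already corrected for background, was used. The authors' deposited value table gave identical intensity values.

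Control spots and marked spots (52 to 98 gene spots per array) were left out, log2 intensity was averaged over the spots of a probe, and the 75th percentile of each array was set to 0 (Python 3.11.15, numpy 2.4.6, pandas 2.3.3). RefSeq accessions named 34892 probes. A lower bound was set against the higher of the mock reading and the lowest level among probes well above background. For a list, the probe with the highest mean level per gene gave medians and sums, and any probe gave calls. Genes outside the members were named where all 3 drugs induced or reduced them (the 5 largest at most), other antagonists where any array measured them, and the 5 nearest to SFRP1. A leukocyte marker is not reported here, and its list was summarised without it. Members and lists were chosen with earlier results of these data known.

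With 1 array per condition there was no test, and that number limits precision. The counting was tested on simulated data in which only brighter probes were changed, so it does not cover members that were dim on the mock array. Alternatives were normexp correction of the median spot signal (limma 3.58.1, R 4.3.3, offset 50), other scalings, thresholds, spot rules and probe rules.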

Additional observations from a re-analysis of the deposited data

How the results depend on the processing

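No call of a member reversed under any alternative. The deposited value table, kept marked spots and spot medians left every member count as it was. Induced members went from 3 to 2 with each drug at a 4-fold threshold, where DKK1 lost its call, and from 3 to 2 over only probes well above background on all arrays, where SOX17 did. Without the threshold on the level, the member probes induced were 7 with each drug, as were the genes, while 1 probe (SFRP4, at background on both arrays) counted as reduced with OR-2100. With the 75th percentile of the probes well above background set to 0, the mock array kept in place, the SFRP1 log2 differences were 3.45, 3.41 and 3.64, and with the median of all gene probes the OR-2003 difference was 2.89. Under normexp they were 1.20, 1.12 and 1.30, and the median of the 10 genes fell to 0.35, 0.41 and 0.39. That median was 1.83, 1.77 and 1.78 with values raised to the background limit, 1.87 with OR-2003 when all probes of a gene were averaged, and 2.61 with DAC and 2.67 with OR-2100 over the 2 genes well above background on all arrays. The causes of these moves were not tested, and under normexp the part of the added offset was not separated from that of the background correction.

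Scaling moved the balance of all gene probes. Of those changed 2-fold, 46.0%, 46.4% and 43.8% were induced, against 64.8%, 70.4% and 65.2% with the bright-probe percentile and 30.3% with OR-2003 with the median, and the median log2 difference of all gene probes, -0.13, -0.10 and -0.25, became 0.10, 0.19 and 0.0014 with the first and -0.24, -0.33 and -0.34 with the second. SFRP1, DKK1 and SOX17 were higher with each drug under every scaling. DKK1 stayed between 1.65 and 2.22 on the log2 scale under these and quantile scaling. No paired analysis was possible because mock and every drug had a single array, and leaving out a replicate was not possible for the same reason. Readings not well above background, such as those of SOX17, WIF1 and DKK4 on the mock array, carry no order.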
